A study of Mus musculus with 2 samples.

Results

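The mRNAs of the Bcl2 family, the caspases and the targets of the transcription factor p53 were measured in C2C12 myotubes, muscle fibres grown in culture from a mouse myoblast line. The 43 genes were chosen by name, and every array probe that carried one of these names was taken. Probes were found for 42 of the names, and Tp53inp1 was read under its mouse spelling, Trp53inp1, which gave 92 probes of the 56605 on the array. One culture was given 4 µg of exosomes (membrane vesicles shed by cells) from a KPC line for 24 h. KPC cells come from a pancreatic tumour of mice that carry Pdx1-Cre together with Trp53LSL-R172H/+ and KrasLSL-G12D/+ alleles, so Cre acts in the pancreas. The control culture was given exosomes (MPDC-exo) from MPDC, an epithelial line of mouse pancreatic ducts, at a dose that the sources used here leave unstated. The myotubes of both cultures had been differentiated in horse serum. There was 1 array per group, so no test was run, and each difference below is between these 2 arrays and has no replicate check.

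Mitochondrial apoptosis is controlled by the Bcl2 family. Bax and Bak1 open the outer mitochondrial membrane, Bcl2, Bcl2l1, Bcl2l2 and Mcl1 hold them back, and the BH3-only proteins relieve that hold. Cytochrome c released from mitochondria binds Apaf1, which activates Casp9, while ligands of Fas activate Casp8 at the cell surface. p53 is kept low by Mdm2 and Mdm4 and, when active, switches on genes at most of these steps. Multinucleated myotubes no longer divide, and differentiating myoblasts use low caspase activity without dying.

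The level of a gene is given as the log2 signal of its brightest probe minus the 75th percentile of all probes on the same array, so that 0 is that percentile. Levels of different genes are not comparable, because each probe binds with its own strength. A gene counts as measured when both arrays had that probe well above background. Local background was flagged at 13 of the 92 probes on the KPC-exo array and at 3 on the MPDC-exo array, and these spots were kept. Flagged on KPC-exo were the brightest probes of Bad, Casp2, Casp8, Cflar, Eda2r, Gadd45b, Phlda3 and Ripk1, the last on both arrays. Differences are KPC-exo minus MPDC-exo on the log2 scale. They are relative to each array's overall brightness: centred on the array's 7 spike-in probes instead, every difference is 1.00 larger, the median of all genes is 1.06, and genes given below as lower would be higher. The spot error of such a difference, from the scanner software, covers reading of the spot only. At the brightest probes of these genes its median was 0.20 and its highest value 0.29, and it is printed for the genes with the largest differences and for some dim probes. Between different probes of 1 gene, the difference had a pooled SD of 0.31 over the 18 of these genes with at least 2 measured probes, and 0.36 over 5736 such genes on the whole array.

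All 8 myotube markers were measured in both cultures, among them Acta1 (skeletal actin), with levels of 6.61 (MPDC-exo) and 6.49 (KPC-exo), Myog, with 5.75 and 5.59, and Ckm (muscle creatine kinase), with 0.12 and -0.31. Their differences ran from -0.44 to 0.34. Of 5 ductal epithelial markers only Krt19 was measured, with dim levels of -2.47 and -2.34, while neither array had Krt8, Krt18, Epcam or Cdh1 well above background. The myoblast marker Pax7 was measured and Myf5 was not. Dividing-cell markers were also measured in both cultures. Mki67 had levels of 2.02 and 1.69, Top2a 2.01 and 1.60, and Ccnb1 2.33 and 1.92. The differences of these markers were -0.33, -0.41 and -0.41. The macrophage markers Ptprc and Cd68 were measured, with differences of 0.29 and 0.63, and Adgre1 was not. Cd68 was dim, with levels of -1.40 and -0.77. Of the fibroblast markers, Col1a1 had 0.22, Pdgfra 0.27, and Thy1 was not measured. Signal of a marker does not show that cells of that type were present in these cultures of a myoblast line. Any part of other cell types in the results below was not tested. In whole cultures fewer cells of a type and less RNA per cell cannot be told apart.

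The apoptosis and p53 genes differed little between the arrays. Past 1.5-fold, 1 of the 42 measured genes was higher with KPC-exo and 0 were lower. Across all 16989 measured genes, 3.71% were that much higher and 3.72% that much lower, so the members' counts lie near the background. Their median difference was 0.06, and that of all genes was also 0.06. Within 1.2-fold lay 33 of the 42, or 78.6%, against 66.1% of all measured genes. The members were brighter than most genes, with 10 of 42 below the median signal of measured genes. Past 1.5-fold in either direction lay 7.43% of all measured genes, but 2.15% of those above the median signal. At 2-fold, 0 members were higher and 0 lower, where 0.73% of all measured genes were higher and 1.19% lower, or 1.92% together. Probe by probe, 3 of the 72 measured probes of these genes were at least 1.5-fold higher (Apaf1, Xiap and Aen) and 1 was lower (Mdm4), where 4.64% of all 24962 measured probes were higher and 5.43% lower.

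**Figure D1:**
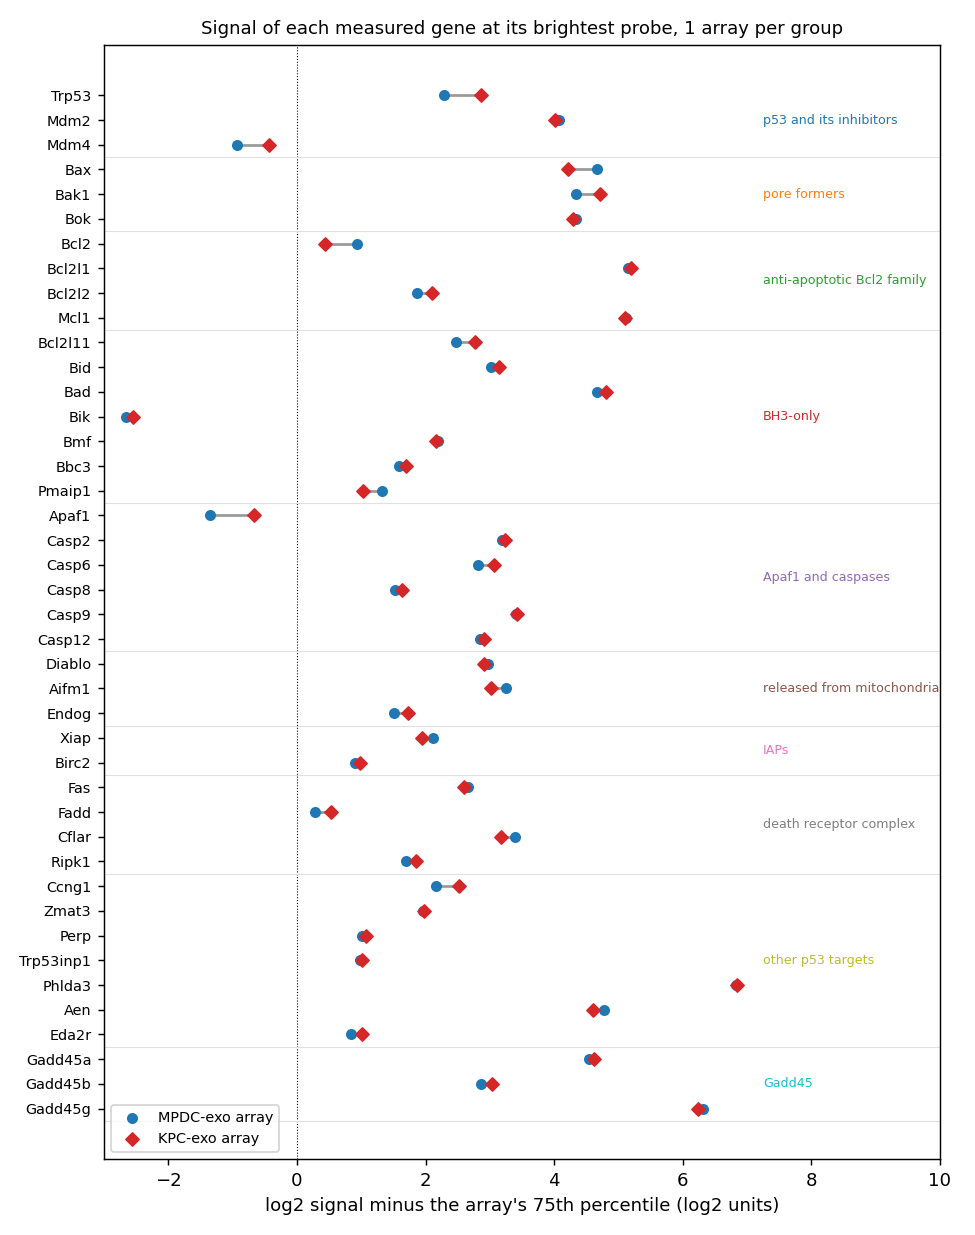
Level of each measured gene at its brightest probe (log2 signal minus the array's 75th percentile) on the MPDC-exo array (circles) and the KPC-exo array (diamonds), 1 array per group, with genes ordered by role. The longest connecting lines belong to Apaf1 (-1.35 to -0.66), Trp53 (2.29 to 2.86) and Mdm4 (-0.94 to -0.43). Positions of different genes along the axis are not comparable.

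Because several values turn on which probe is read, the first 30 of 60 bases are shown for the probes of the 5 genes with differences of 0.4 or more in size, and for Xiap, whose 2 measured probes had opposite signs. For Mdm4, with 5 measured probes, the brightest and the lowest in difference are given, and for Bcl2 the brightest. All bases are in lower case, since no part is singled out.
Apaf1: aacaaaatcttgtatagggttaaggaaggt
Trp53: accgccgtacagaagaagaaaatttccgca
Mdm4, brightest: atctgacaccttcacacagatgtacatgca
Mdm4, lowest difference: gcaacatatggtatactgtggtggagatct
Bax, brightest: tcctgggatgaatgggggaaggggaaaggc
Bax, other: cagatcatgaagacaggggcctttttgcta
Bcl2, brightest: catataatggctctttgtttgtgttgttag
Xiap, brightest: cgtttatggaaactcctttatggaattgct
Xiap, other: gaaaccttagacagagaagcattttatagc

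Among p53 and its inhibitors, Trp53 was higher on the KPC-exo array, and Mdm2 was near level at its brightest probe. Trp53, which encodes p53, had levels of 2.29 (MPDC-exo) and 2.86 (KPC-exo), a difference of 0.58 ± 0.20 (spot error), or 1.49-fold. This is just under the 1.5-fold threshold, and it rests on the only Trp53 probe, on chromosome 11 from 69403134 to 69403193 (mm9). Mdm2, the ubiquitin ligase that degrades p53 and is itself a p53 target, had levels of 4.08 and 4.01, a difference of -0.07. Its other measured probe, which crosses an intron, had -0.39 ± 0.25 (spot error) at levels of -1.95 and -2.33. The sign at the brightest probe turned with normexp background correction, to 0.02, so the gene's direction was not settled.

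Mdm4, a relative of Mdm2 that blocks p53 activity, had no single direction. Its brightest probe, on chromosome 1 from 134896049 to 134896108, had levels of -0.94 and -0.43, a difference of 0.51 ± 0.21 (spot error). The other 4 measured probes all pointed the other way, with differences of -0.09, -0.28, -0.45 and -0.65. The brightest probe was designed on an Ensembl transcript and these 4 on RefSeq mRNAs of the gene. The mean over the 5 measured probes was -0.19, opposite in sign to the brightest.

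Of the pore-forming members, Bax was lower and Bak1 higher on the KPC-exo array. Bax had levels of 4.67 and 4.22, a difference of -0.45 ± 0.20 (spot error), or 1.36-fold lower, and this probe maps to chromosome 7 from 52717122 to 52717181. Its second probe, which crosses an intron, had levels of 3.30 and 2.97 and a difference of -0.33, so both probes gave the same direction. Bak1, the other pore former, had levels of 4.34 and 4.71, a difference of 0.37. Bok, the other gene of this group, which is not held back by Bcl2, had levels of 4.35 and 4.29, a difference of -0.05.

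Of the 4 anti-apoptotic members of the Bcl2 family, only Bcl2 itself had a difference over 0.4 in size at its brightest probe. Bcl2 had levels of 0.93 (MPDC-exo) and 0.44 (KPC-exo), a difference of -0.49 ± 0.21 (spot error), or 1.41-fold lower, on chromosome 1 from 108434793 to 108434852. A second probe, designed on another transcript variant, had levels of -0.39 and -0.65 and a difference of -0.27. The remaining probe cleared background with KPC-exo only, with a lower bound of 1.03-fold higher there. This bound leaves out a spot error of 0.55 (log2) and is not a firm limit. The 2 measured probes of Bcl2 thus had the same sign.

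Bcl2l1, which encodes Bcl-xL, had levels of 5.15 and 5.19 at its brightest probe, a difference of 0.04. The other 4 measured probes were lower on the KPC-exo array, with differences of -0.42, -0.29, -0.22 and -0.30 and levels from -2.68 to -0.87. The first of these is annotated to positions that overlap those of the brightest probe by 43 bases, but the longest run of bases the probes share is 5. Mcl1, a short-lived survival protein, had levels of 5.11 and 5.11 at its brightest probe and 4.90 and 5.21 at the other, with differences of -0.0051 and 0.31. Bcl2l2, which encodes Bcl-w, had levels of 1.86 and 2.10, a difference of 0.24.

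All 7 BH3-only genes were measured, and 0 were 1.5-fold apart at their brightest probe. Bcl2l11, which encodes Bim, had levels of 2.48 and 2.77, a difference of 0.29, while a probe that crosses an intron had -1.95 and -2.38, a difference of -0.43 ± 0.25 (spot error). Pmaip1, which encodes Noxa and is a p53 target, had levels of 1.32 and 1.02, a difference of -0.29. Bbc3, which encodes the p53 target Puma, had levels of 1.58 and 1.69, a difference of 0.11. The 2 measured probes of Bcl2l11 thus had opposite signs, with a mean of -0.07, while Puma lay near the median of all genes.

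The remaining BH3-only genes had small differences at their brightest probes. Bid, which links Casp8 to mitochondria when cleaved, had 0.12, and Bad, which is switched off by growth factor signalling, had 0.14. Bik was dim, with levels of -2.66 and -2.56 and a difference of 0.11 ± 0.29 (spot error). Bmf had -0.04 at levels of 2.20 and 2.16, and -0.55 ± 0.39 (spot error) at a dim probe with levels of -3.08 and -3.63.

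Apaf1 was the gene past 1.5-fold. It encodes the scaffold of the apoptosome, and had levels of -1.35 (MPDC-exo) and -0.66 (KPC-exo), a difference of 0.69 ± 0.22 (spot error), or 1.61-fold higher. The probe lies on chromosome 10 from 90452580 to 90452639. A second Apaf1 probe cleared background with KPC-exo only, with a lower bound of 1.94-fold higher there. The floor for this bound was the dimmest probe that cleared background with MPDC-exo. This bound leaves out a spot error of 0.48 (log2) and is not a firm limit. Neither array had the remaining Apaf1 probe well above background. With normexp background correction Apaf1 had a difference of 0.50, or 1.42-fold, and Trp53, with 0.65 or 1.57-fold, was then the 1 gene past the threshold.

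The 5 caspase genes lay within 1.2-fold at their brightest probes. Casp9, the caspase that the apoptosome activates, had levels of 3.41 and 3.42, a difference of 0.012, and -0.53 ± 0.25 (spot error) at a dim probe that crosses an intron, with levels of -1.87 and -2.40. Casp8, the initiator at death receptors, had levels of 1.52 and 1.63, a difference of 0.11. Casp6, an executioner, had the largest difference of the 5, with levels of 2.81 and 3.06 and a difference of 0.25. Casp2 had 0.04 and -0.05 at its 2 probes, and Casp12, a caspase of the endoplasmic reticulum in mice, 0.06 and 0.20.

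**Figure D2:**
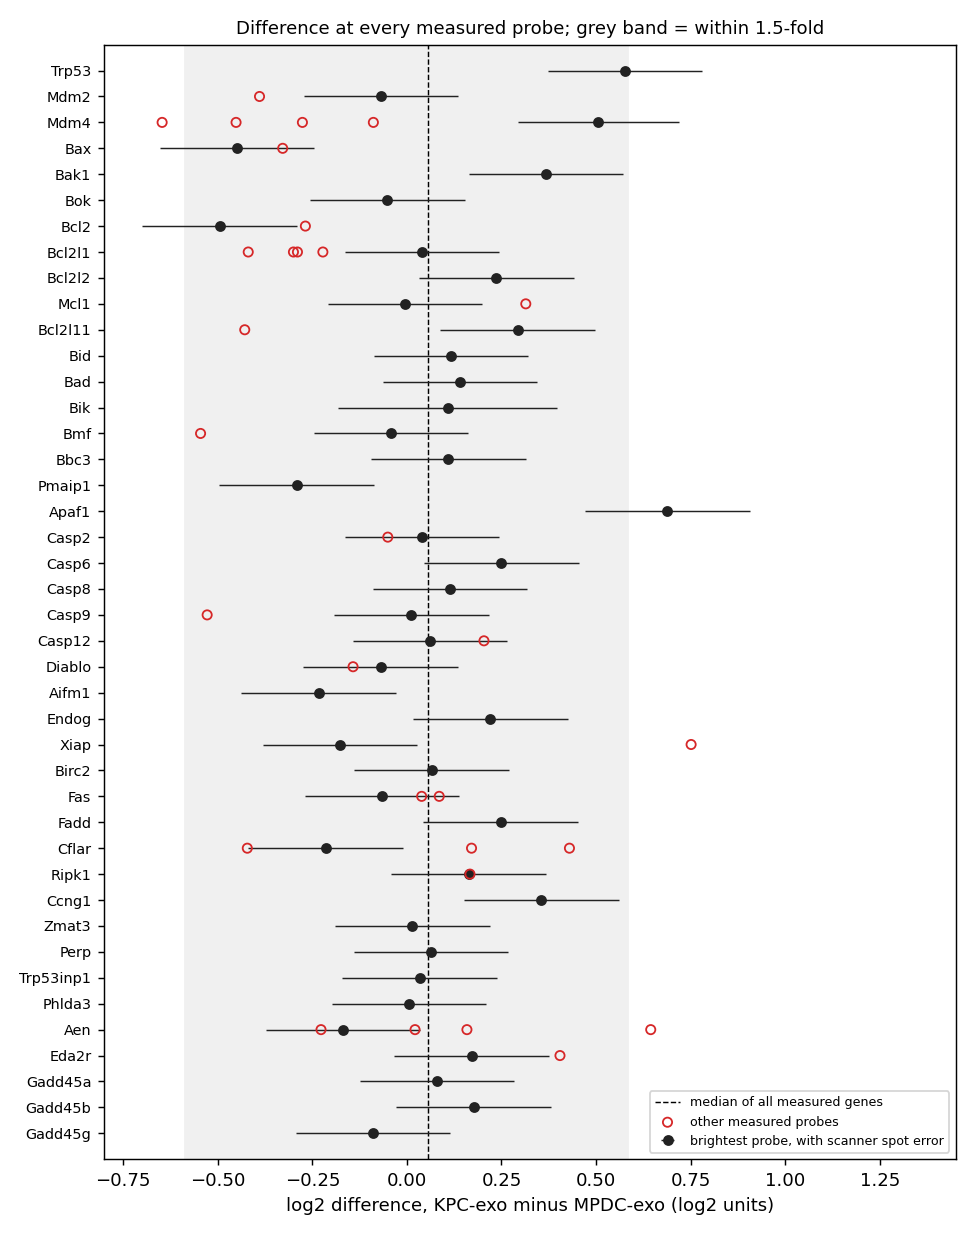
Log2 difference (KPC-exo minus MPDC-exo) at each of the 72 measured probes, by gene. Filled points are the brightest probe with the scanner's spot error, open circles the other measured probes, the grey band is within 1.5-fold and the dashed line is the median of all measured genes, 0.06. For Mdm4, Bcl2l1, Bcl2l11, Bmf, Casp9, Xiap, Cflar and Aen, among others, another probe lies apart from the brightest one.

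Proteins that leave mitochondria during apoptosis showed no common direction. Diablo, whose product removes inhibitors from caspases, had levels of 2.98 and 2.91, a difference of -0.07, and -0.14 at a second measured probe. Aifm1, which encodes apoptosis-inducing factor, had levels of 3.25 and 3.01, a difference of -0.23. The mitochondrial nuclease gene Endog had 1.51 and 1.73, a difference of 0.22.

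Of the inhibitor of apoptosis genes, Xiap and Birc2 were measured, and neither array had any of the 4 Birc3 probes well above background. Xiap, which blocks caspases such as Casp9, had levels of 2.12 and 1.94 at its brightest probe, a difference of -0.18 ± 0.20 (spot error), on chromosome X from 39462720 to 39462779. Its second measured probe, from 39458363 to 39458422, was dim, with levels of -3.20 and -2.45, and had a difference of 0.75 ± 0.32 (spot error). The remaining Xiap probe cleared background with KPC-exo only, with a lower bound of 1.06-fold higher there. This bound leaves out a spot error of 0.67 (log2) and is not a firm limit. The 2 measured probes gave opposite signs, and the gene's direction was not settled. Birc2, which encodes cIAP1, had levels of 0.91 and 0.98, a difference of 0.07.

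At the death receptor, Fas had levels of 2.66 and 2.60, a difference of -0.07, and 0.04 at a second measured probe with levels of -1.37 and -1.33. A further Fas probe was designed on an mRNA with a retrotransposon sequence and is annotated to chromosome 4, while the other 2 lie on chromosome 19, so it may not read Fas. Its difference was 0.09. Fadd, the adaptor between Fas and Casp8, had levels of 0.28 and 0.53, a difference of 0.25, and Ripk1, a kinase of the same complexes, had 0.16 and 0.17 at its 2 measured probes. Cflar, which encodes FLIP, a relative of Casp8 that blocks it, had levels of 3.39 and 3.18, a difference of -0.21. Its other 3 measured probes had -0.42, 0.17 and 0.43. The remaining Cflar probe cleared background with MPDC-exo only, with a bound of 1.39-fold lower with KPC-exo. This bound leaves out a spot error of 0.61 (log2) and is not a firm limit. With spots on flagged local background left out the gene's value was 0.46 in place of -0.21.

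Targets of p53 outside the Bcl2 family and Apaf1 lay within 1.5-fold. Phlda3, an inhibitor of Akt, had levels of 6.84 and 6.84, a difference of 0.0056. Ccng1, which encodes cyclin G1, had the largest difference of this group, with levels of 2.17 and 2.52 and a difference of 0.36. Zmat3 had 0.014, the membrane protein gene Perp 0.06 and Trp53inp1 0.03. Eda2r, a TNF receptor family member, had 0.17 and 0.40 at its 2 measured probes. With spots on flagged local background left out its value was 0.44 in place of 0.17. Phlda3, Zmat3 and Trp53inp1 were thus level between the arrays.

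Aen, a nuclease that p53 induces, had 5 measured probes. The brightest had levels of 4.78 and 4.61, a difference of -0.17, and a neighbour that shares 50 bases with it had -0.23. The others had 0.02, 0.16 and 0.64, the last at levels of -0.16 and 0.49 and with local background flagged on the KPC-exo array. The Gadd45 genes, which encode stress sensors that act on p38 and JNK kinase signalling, were near level. Gadd45a had levels of 4.54 and 4.62, a difference of 0.08, Gadd45b 2.86 and 3.04, a difference of 0.18, and Gadd45g 6.32 and 6.23, a difference of -0.09.

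**Figure D3:**
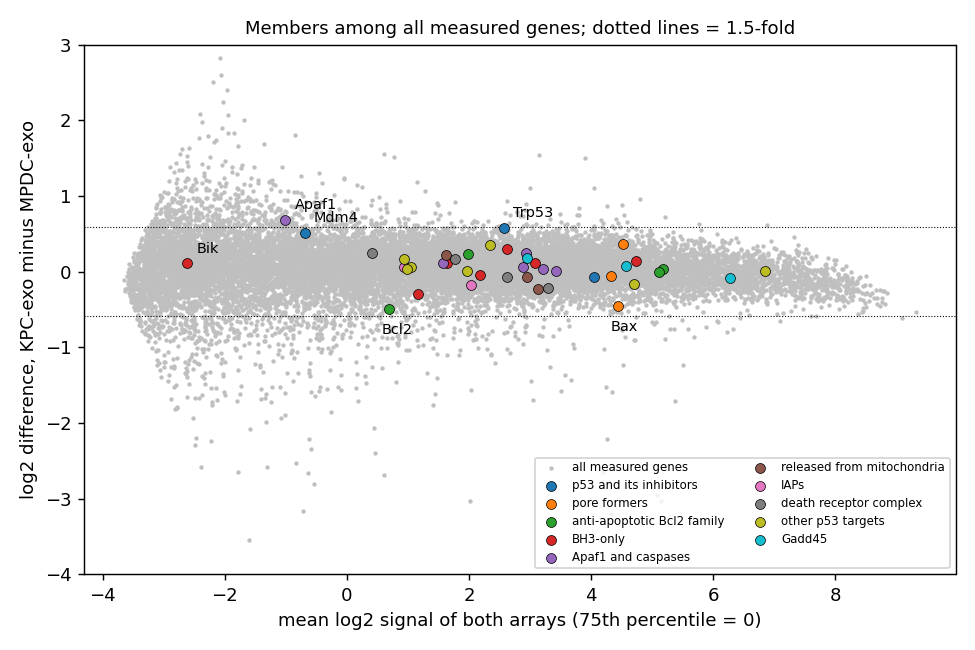
Log2 difference against mean log2 signal (75th percentile = 0) for the 16989 measured genes (grey) and the 42 measured members (coloured by role). Dotted lines mark 1.5-fold, Apaf1 lies above the upper line and Trp53 just under it, and no member lies below the lower line.

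The genes that promote apoptosis were then set beside those that restrain it. The 21 pro-apoptotic genes had a median difference of 0.11, with 12 above the all-gene median and 9 below it, and 1 past 1.5-fold, Apaf1. The median of the anti-apoptotic genes was -0.0051 over 7 measured of 8, with 2 above the all-gene median and 5 below it and 0 past 1.5-fold. That median is the value of Mcl1 at its brightest probe, and the other Mcl1 probe, nearly as bright, had 0.31. The medians differed by 0.11. Within both groups the range was wider than this gap, from -0.45 (Bax) to 0.69 (Apaf1) among pro-apoptotic genes and from -0.49 (Bcl2) to 0.24 (Bcl2l2) among anti-apoptotic ones. The gap was 0.02 with spots on flagged local background left out, and 0.04 with quantile normalization or with the mean over probes. With no filter on dim probes it was 0.20. That setting adds Birc3, which neither array had well above background.

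**Figure D4:**
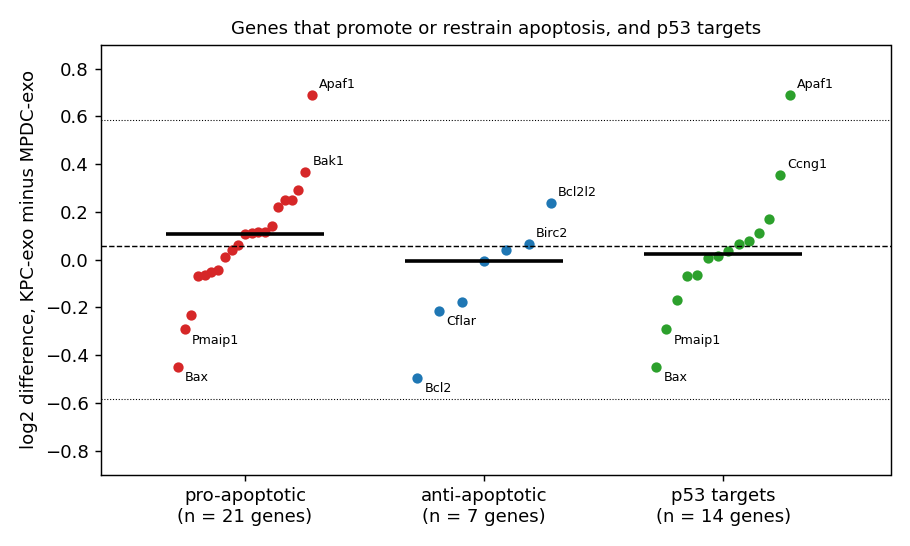
Log2 difference (KPC-exo minus MPDC-exo) of each measured pro-apoptotic gene (21), anti-apoptotic gene (7) and p53 target (14), sorted within each group, with black bars at the group medians of 0.11, -0.0051 and 0.02. The dashed line is the median of all measured genes, 0.06, and dotted lines mark 1.5-fold. The 3 groups overlap over most of their range.

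For 14 p53 targets, some of them also pro-apoptotic, the median difference was 0.02, with 6 above the all-gene median and 8 below it. This stood beside 0.58 at the Trp53 probe. Bax was the lowest of the targets and Apaf1 the highest. Cdkn1a, the cell cycle inhibitor that is a classic p53 target and is not among the members, had levels of 5.84 and 5.82, a difference of -0.02.

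The promoters of the members were searched for the p53 site, a pair of half-sites each of 10 bases. The 4 central letters of each half-site had to match, the spacer could reach 13 bases, and at most 2 mismatches were allowed in the pair. The half-site is its own reverse complement, so 1 search covers both strands. RefSeq sequences (GRCm38.p6) from 250 bases before to 50 after the gene start were found for 38 members, of which 2 held a match, Bax and Casp2. Of 27018 genes with such a sequence 2.47% held one. Bax is shown because it is the one of the 10 p53 targets with a sequence that held a match. It lies from 216 to 181 bases before the start, at chr7:45467079-45467114 on the minus strand, with the central letters of its overlapping pairs in capitals.
Bax: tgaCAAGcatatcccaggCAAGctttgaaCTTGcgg

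Of 55 other genes of apoptosis and p53 signalling, 48 were measured, with a median difference of 0.04, 1 at least 1.5-fold higher and 1 at least 1.5-fold lower. Pidd1, which activates Casp2 in the PIDDosome, was 1.97-fold higher, with levels of -2.27 and -1.29. A second measured probe had -1.87 and -1.80, a difference of 0.08. The brightest probe was taken by its mean over both arrays, while on the MPDC-exo array the second probe was the brighter. The choice of probe thus drew on the KPC-exo value, and the count of 1 higher rests on it. A further Pidd1 probe cleared background with KPC-exo only, at -2.59 against -3.83. Vdac1, which encodes an abundant channel of the outer mitochondrial membrane, was 1.70-fold lower at its 1 probe, with levels of 5.98 and 5.21, while Vdac2 had -0.04. Birc5, which encodes survivin and is made mainly in dividing cells, had -0.45, and the dividing-cell markers above also had negative differences. The part of dividing cells in this value was not tested.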

How the data were processed

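Total RNA of 1 culture per group was hybridised to 1-colour Agilent arrays. Spots were read by Feature Extraction 10.7.1.1 of Agilent (file headers and submitters' processing notes), which, per the file headers, removed spatial and multiplicative trends in the background and signal. The deposited scanner files give linear intensity per spot with no normalization across arrays, and 0 or 1 flags (other values), per the file headers. The deposited series table holds log2 values whose making the sources used here do not state. Its columns correlated at 1.00 with log2 of the scanner signal, with medians of 4.89 on both arrays, and their sorted values differed by at most 0.000481. It is not centred per gene.

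From the intensity, log2 was taken, 102 flagged spots (MPDC-exo) and 166 (KPC-exo) were left out, replicate spots were averaged per probe, and the 75th percentile of each array (380 and 639 units) was subtracted. Well above background were 45.9% and 47.6% of probes, and 0 spots were saturated. The 2 arrays are the limit of precision. For 32994 probes whose identifier was found in RefSeq (GRCm38.p6), the gene name was taken from there, whether or not it changed. Members keep the names in the files. Probe positions are those of the files, on mm9.

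Both arrays share 1 slide and scan. The steps were tested on simulated data. Members, lists and alternatives were chosen with earlier results of these data known. Every member is named, and probes are given singly where the difference reached 0.4 or signs differed. Python 3.11.15, numpy 2.4.6, pandas 2.3.3, matplotlib 3.10.9, R 4.3.3 and limma 3.58.1 were used. Some items are not reported here.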

Additional observations from a re-analysis of the deposited data

How the results depend on the processing

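The count of 1 gene at least 1.5-fold higher and 0 lower was the same under normexp (offset of 50), median centring, centring on probes detected on both arrays, quantile normalization, the mean over probes, flagged spots kept, dim probes kept or filtered more strictly, and the series table. The gene was Apaf1 in each of these except normexp, where it was Trp53. The series table gave nearly the same values as quantile normalization (Apaf1 0.680 and 0.681, Bax -0.492 in both), so these are not separate checks. At a 2-fold threshold the count higher was 0. With spots on flagged local background left out, chosen after seeing the data, it was 2, Apaf1 and Trp53 (1.53-fold), among the 37 members left, where 4.44% of all measured genes were higher. The cause was not tested. Centring on 7 spike-in probes shifted every gene by 1.00, giving 40 of 42 members higher, where 93.4% of all measured genes were, and medians of 1.11 for pro-apoptotic genes, 1.00 for anti-apoptotic genes and 1.03 for p53 targets, so all values are relative to the bulk of signal on each array. Of 414 member values in the other alternatives, 3 moved by more than the whole-array spread between probes, 0.361. They were Mdm4 (-0.19) and Xiap (0.29) in the mean over probes and Cflar (0.46) without spots on flagged background. Bcl2l11, with -0.07 in the mean over probes against 0.29, moved by more than the smaller spread of 0.31 between the members' probes. In these alternatives 24 of 42 members kept their sign. No paired analysis was possible because each group has 1 array. Signal over background limits the dim probes, with a spot error of 0.29 for Bik against a median of 0.20.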

Other observations

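The measured member probes that cross an intron shared 1 direction. All 5 measured ones, of Bax, Bcl2l11, Casp9, Mdm2 and Mdm4, had negative differences, from -0.53 to -0.33. Over all measured probes, 53.2% of 2119 intron-crossing probes were negative, with a median difference of -0.03, against 42.7% of 22759 others, with a median of 0.05. The 5 had a lower median level, -2.14 against 1.64 for the members' other measured probes. The Bax probe was not dim, with levels of 3.30 and 2.97. Dim member probes that cross no intron had both signs, such as -0.55 for Bmf and 0.75 for Xiap, but more of them were negative than positive. The part of dim signal in the shared direction of the 5 was not tested.

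Of the 18 members with at least 2 measured probes, 10 had probes of opposite sign. The same share over the whole array was not computed, so the count is not read as a trait of these genes. Their pooled SD between probes, 0.31, was below the 0.36 of the whole array. Some of the opposite signs lie at small differences, such as 0.04 and -0.05 for Casp2. For 17 members whose probes lie on 1 strand, the upstream-most probe minus the downstream-most probe had a median of 0.12, with 7 negative, and over 5654 genes of the array the median was -0.05, with 54.4% negative.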
